A study of Mus musculus with 6 samples.

Results

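Proneural and neurogenic transcription factors were followed in whole FVB mouse embryos from diabetic and control pregnancies at 10.5 days of gestation. The set held 9 genes (Neurog1, Neurog2, Neurod1, Neurod4, Atoh1, Insm1, Olig2, Nhlh1 and Nhlh2), chosen by symbol and read at the 14 array probe sets that the platform's table paired with exactly 1 of these symbols, out of 18193 genes and 34945 probe sets with 1 symbol. All 14 probe sets, and so all 9 genes, passed the filter on dim signals that left out the dimmest 33.3%, where the lowest mean signal kept was 26.7 units. The diabetes-exposed embryos came from FVB dams given 2 intraperitoneal injections of 100 mg streptozotocin per kg body weight at 7 to 9 weeks of age, a toxin of pancreatic beta cells, with blood glucose over 250 mg per dl as the criterion of diabetes. The control embryos came from FVB dams of non-diabetic pregnancies. Each group had 3 pools, each pool combined RNA of 3 morphologically normal embryos of different pregnancies, with 1 Affymetrix mouse expression array for each pool. The comparison asked how these regulators of nerve cell birth differed in embryos exposed to maternal diabetes. A pool averages its 3 embryos, and the effect of diabetes cannot be told apart from any other effect of the drug on the dam.

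Proneural factors of the basic helix-loop-helix (bHLH) class commit dividing cells of the neural tube and sensory placodes to become neurons. They bind DNA at E-boxes as dimers with E proteins, switch on Notch ligands that hold neighbouring cells back as progenitors, and hand over to later bHLH genes that drive differentiation. Id proteins take away the E protein partner, and Hes repressors of the Notch pathway keep proneural genes silent. In the mid-gestation embryo, Neurog1 and Neurog2 act in the spinal cord, brain and sensory ganglia, Atoh1 in the dorsal hindbrain and spinal cord, and Olig2 in the progenitors of motor neurons. Neurod1 and Neurod4 act after them, as do Nhlh1 and Nhlh2 in newly born neurons. Insm1 is not a bHLH protein but a zinc finger factor switched on downstream of proneural genes in newborn neurons and neuroendocrine cells.

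Of the 9 genes, each read at its brightest probe set, 6 fell and 1 rose in the diabetes-exposed pools (adjusted p under 0.05 by limma). Over all 13956 genes tested, the share called lower was 19.9% and the share called higher was 17.6%. The 6 that fell were Insm1, Olig2, Neurog2, Nhlh2, Neurog1 and Atoh1, and the 1 that rose was Neurod4. Neurod1 and Nhlh1 did not pass the test. The median log2 fold change of the 9 genes was -0.64, and that of all tested genes was about 0 (-0.00025). At the level of probe sets, 8 of 14 fell and 2 rose, against 21.8% called lower, 14.4% called higher and 36.2% in all among the 30025 tested probe sets. Of the 9 genes, 3 (Insm1, Olig2 and Neurog2) fell by at least 2-fold, as did 6.01% of all genes, and 5 of 14 probe sets did so against 11.0% of all. These probe set counts include 1, the dim one of Neurog1, that passed the filter through the control pools alone; without it they are 7 of 13 lower and 4 of 13 by at least 2-fold. No exposed pool reached a control pool for 6 of the 9 genes with the exposed pools below and for 2 with them above, where the shares of all genes were 26.5% and 25.9% (52.3% either way). For the 14 probe sets these counts were 8 and 3, beside 28.0% and 21.9% of all (49.9% either way). The 8 again include the dim probe set of Neurog1 that passed the filter through the control pools alone. As whole embryos were measured, fewer cells of a type and less RNA per cell cannot be told apart in any of these values.

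The share of higher and lower calls among the 9 genes depended on how the arrays were scaled. It was 2 higher and 3 lower under median centring of the arrays, and 2 higher and 5 lower after quantile or cyclic loess normalization. Of all tested probe sets, 24.8% were called higher and 13.0% lower under median centring. These shares were 21.0% and 17.4% after quantile and 17.4% and 19.2% after cyclic loess normalization. The median change over all genes, on the log2 scale, became 0.30, 0.14 and 0.081 in that order. The arrays also differed between the groups in 3' ratios, in the embryos' own RNA and in added control RNA. Beta-actin gave a 3'/5' ratio of 1.71, 1.76 and 2.19 in control replicates 1 to 3 against 10.1, 3.09 and 10.3 in diabetes-exposed replicates 1 to 3, and Gapdh gave 0.824 to 0.921 against 0.972 to 1.84. Bacterial poly-A transcripts, added to each RNA sample before labelling, gave a ratio of 3' to middle signal (geometric mean of 8 pairs of probe sets) of 2.10, 2.07 and 2.52 in control replicates 1 to 3 and of 6.56, 3.47 and 7.00 in diabetes-exposed replicates 1 to 3. The groups did not overlap in any of the 3 ratios (two-sided exact permutation p = 0.1 each, the smallest that 3 against 3 arrays allow), and the second exposed pool was the nearest to the control pools. The spike ratio was then added to the fit as a covariate (the spike covariate). In that fit limma called 0 of the 9 genes (3 at an unadjusted p under 0.05) and 1 of the 14 probe sets. It called 1.81% of all genes and 1.21% of all probe sets. As the ratio itself separated the groups, this fit cannot tell ratio and group well apart. Standard errors rose at every member probe set, for Neurog2 from 0.12 to 0.24 and for Nhlh2 from 0.15 to 0.19. A call can thus be lost in it through lower precision with little change in size. An alternative added once these ratios were known left out diabetes-exposed replicates 1 and 3, and takes the lone exposed pool to vary like the controls. In it the log2 fold change was below 0 for 7 of the 9 genes, the same count as with all arrays, and ran from -2.56 for Insm1 to 0.45 for Neurod4. Beside the fit of all arrays it was nearer 0 for Neurog2, Neurod1, Neurod4, Atoh1, Olig2 and Nhlh2. It was farther from 0 for Neurog1, Insm1 and Nhlh1. The part of these ratios in each result was not tested beyond these values.

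The promoter windows of the neurogenin pair are shown because both genes fell and the windows share a stretch at their start sites. Sequences are from RefSeq's mouse promoters on build GRCm38.p6, which matched 8 of the 9 genes (all but Insm1), counted from the first transcribed base as position 1, and capitals mark the longest exact run that both have in common. The Neurog1 window is chr13:56252161-56252280 on the minus strand and the Neurog2 window is chr3:127633036-127633155 on the plus strand, each from position -100 to 20.
Neurog1: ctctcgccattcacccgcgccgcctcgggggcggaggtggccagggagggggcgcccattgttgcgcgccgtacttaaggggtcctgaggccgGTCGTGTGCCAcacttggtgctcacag
Neurog2: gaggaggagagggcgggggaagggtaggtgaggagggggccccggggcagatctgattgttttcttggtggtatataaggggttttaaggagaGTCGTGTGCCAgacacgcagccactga

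The shared run had 11 bases, ran from position -7 to position 4 in both genes, and stood in 2 of the 32851 promoter windows in the table, those of Neurog1 and Neurog2. It was found by searching all pairs of member windows after their values were known. Runs of up to 12 bases were shared by other pairs, and the neurogenin run was the 1 at the same position in both windows. A TATATAA box on either strand lay in the 250 bases before the start of 2 of the 8 genes, at position -29 in Neurog2 and -31 in Neurod1, against 3.04% of all such windows. Of these 2 genes, Neurog2 was called and Neurod1 was not. A CCAAT motif, counted in the same way, lay in 5 of the 8 genes against 33.85% of all windows.

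The windows of Nhlh1 and Nhlh2, close relatives of which Nhlh2 was called and Nhlh1 was not, are shown for their E-boxes, the sites of bHLH dimers. Capitals mark each CANNTG, a motif that reads the same on both strands. The Nhlh1 window is chr1:172057597-172057846 on the minus strand and the Nhlh2 window is chr3:102009895-102010144 on the plus strand, each from position -250 to -1.
Nhlh1: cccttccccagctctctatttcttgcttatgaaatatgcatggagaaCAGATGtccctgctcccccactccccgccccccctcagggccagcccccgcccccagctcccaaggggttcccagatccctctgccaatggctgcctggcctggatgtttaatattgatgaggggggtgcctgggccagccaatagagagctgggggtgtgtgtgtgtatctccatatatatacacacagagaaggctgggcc
Nhlh2: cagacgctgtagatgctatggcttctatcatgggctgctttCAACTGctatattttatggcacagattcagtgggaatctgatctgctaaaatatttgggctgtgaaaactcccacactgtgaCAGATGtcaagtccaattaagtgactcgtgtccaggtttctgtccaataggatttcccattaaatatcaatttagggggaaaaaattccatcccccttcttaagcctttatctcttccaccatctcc

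Both windows held the form CAGATG, at position -203 in Nhlh1 and -127 in Nhlh2, and Nhlh2 also held CAACTG at position -209. Of the 8 genes, 3 had a CANNTG in these 250 bases (Neurod1 with CATATG at position -242 besides the Nhlh pair), against 66.2% of all 32851 windows. A match is a run of letters in this window and not a measured binding site.

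Neurog1 and Neurog2, the neurogenins that start sensory and spinal neurogenesis, were both lower in exposed pools. For Neurog2, the signal was 818.1, 686.3 and 715.8 in control replicates 1 to 3 and 363.1, 373.6 and 344.5 in diabetes-exposed replicates 1 to 3. The lowest control pool was well above the highest exposed pool, and the 3 exposed pools were closer to each other than the controls were. Neurog2 fell from 740.1 ± 69.2 (SD, n = 3) to 360.4 ± 14.7, a log2 fold change of -1.03 (SE 0.12, adjusted p = 7.1e-04 by limma), or 2.05-fold lower. Its log2 fold change was -0.91 (SE 0.24, adjusted p = 0.13) with the spike covariate, and -0.98 at diabetes-exposed replicate 2 alone. The call held without each pool in turn, between -1.09 and -0.96, and under median centring (-0.74), quantile (-0.79) and cyclic loess normalization (-0.86).

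Neurog1 was read by a bright and a dim probe set, and its call rests on the bright one. At the bright one (1438551_at) the signal was 851.3, 846.2 and 893.8 in control pools and 544.6, 531.7 and 592.8 in exposed pools. No exposed pool reached a control pool. The log2 fold change there was -0.64 (SE 0.10, adjusted p = 0.0022 by limma), and -0.79 (adjusted p = 0.11) with the spike covariate. The call ended under median centring, at -0.34 (adjusted p = 0.14). At the dim one (1450836_at) the signal was 142.2, 122.9 and 83.8 in control pools and 13.7, 15 and 8.9 in exposed pools. Its exposed signals lay between the 17.8 and the 23.3 percentile of all probe sets of their arrays, so the size of the difference is not fixed by these data. The log2 fold change of this probe set was -3.22 (95% interval -4.18 to -2.25), and -1.72 with a pseudocount of 32. It passed the filter through the control group, since all 3 exposed signals were under 26.7, the lowest mean signal kept.

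**Figure D1:**
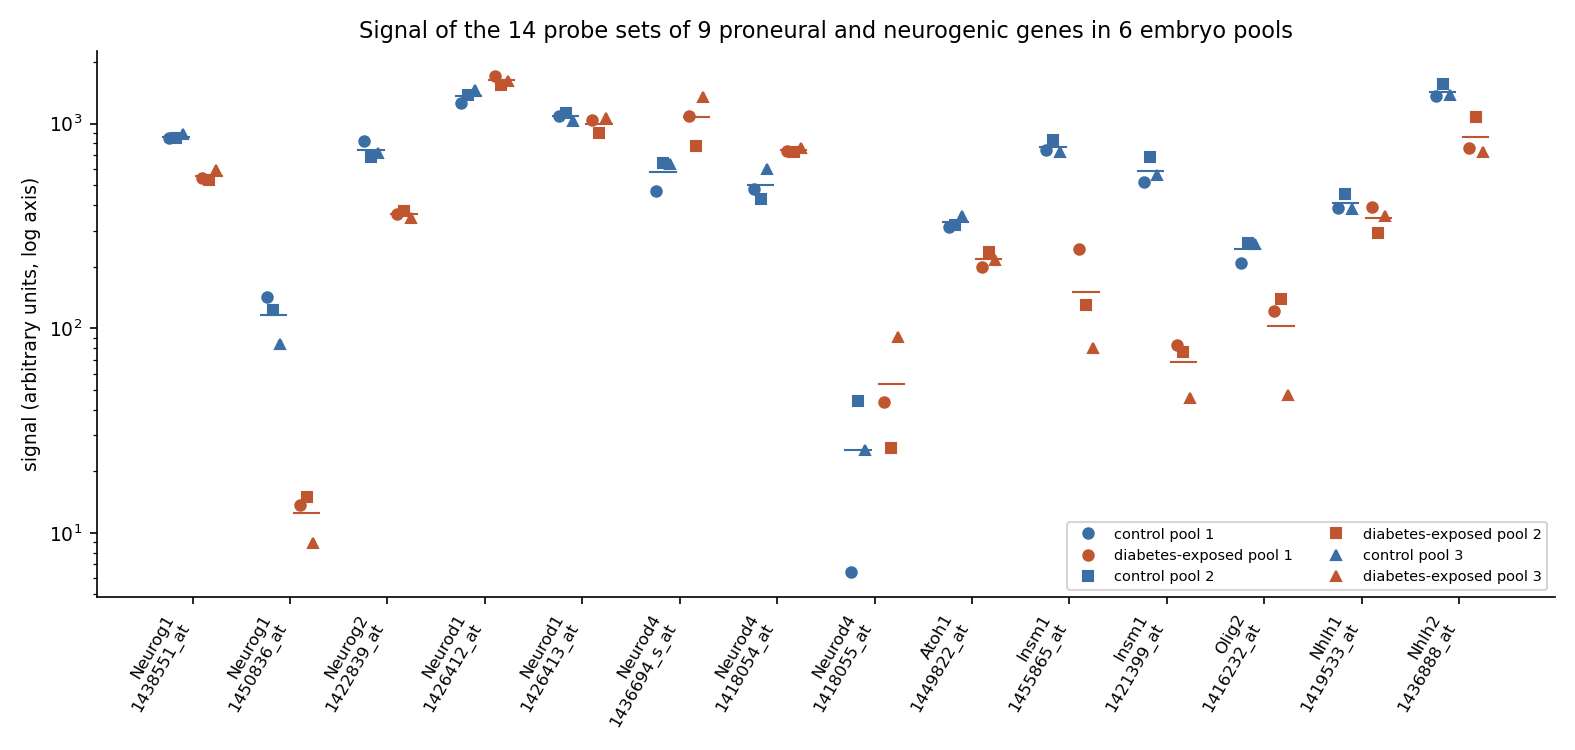
Signals of the 14 probe sets on a log axis in arbitrary units (vertical), with 1 point per pool (circle, square and triangle for replicates 1, 2 and 3; blue control, orange diabetes-exposed) and short lines at the group means. The exposed pools lay below all control pools for 8 probe sets, above them for 3 (2 of Neurod4 and 1 of Neurod1), and overlapped with them for 3. The 8 include 1450836_at of Neurog1, which passed the filter on dim signals through the control pools alone.

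Insm1, the zinc finger factor of newborn neurons, had the largest decrease of the 9 genes at their brightest probe sets, and was lower at both of its own. At the brighter one (1455865_at) the signal was 745.8, 830.8 and 726.0 in control pools and 243.2, 130.3 and 79.7 in diabetes-exposed replicates 1, 2 and 3. Each control pool was above each exposed pool by a wide gap, and the exposed pools spread over a wider range in proportion than the controls. The decrease from 767.5 ± 55.7 to 151.1 ± 83.7 was a log2 fold change of -2.49 (SE 0.34, adjusted p = 0.0013 by limma), or 5.63-fold. At the other probe set (1421399_at) the control pools stood at 519.1, 686.0 and 563.3 and the exposed pools at 82.7, 76.2 and 45.7. Here the log2 fold change was -3.15 (SE 0.25, adjusted p = 2.0e-04 by limma), or 8.86-fold lower. With the spike covariate the values were -2.42 (adjusted p = 0.16) and -2.66 (adjusted p = 0.046), the latter the 1 member probe set that kept its call in that fit. At diabetes-exposed replicate 2 alone the differences from the control mean were -2.56 and -2.94 on the log2 scale. Both calls held under all 3 other scalings and without each pool in turn.

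Olig2, which specifies motor neuron progenitors and later oligodendrocytes, was lower by 1 of the larger amounts and with the widest error among the genes called. The control pools gave 208.6, 262.2 and 257.3, and the exposed pools 121.0, 138.5 and 47.1. The third exposed pool was far below the others, and no exposed pool reached the lowest control. Olig2 fell by 1.39 on the log2 scale (SE 0.38, adjusted p = 0.021 by limma), from 242.7 ± 29.6 to 102.2 ± 48.5. The call ended without control replicate 2 (-1.33, adjusted p = 0.067) or control replicate 3 (-1.34, 0.057), and the value was -0.90 without diabetes-exposed replicate 3, with the call kept. With the spike covariate it was -0.23 (adjusted p = 0.92), and at diabetes-exposed replicate 2 alone -0.80.

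Atoh1, the factor of dorsal interneurons, cerebellar granule cell precursors and hair cells, was lower by a smaller amount. Its signals were 312.7, 320.6 and 355.2 in control pools and 200, 236.4 and 215.5 in exposed pools. The groups did not overlap and spread by similar amounts. Atoh1 fell by 0.60 on the log2 scale (SE 0.14, adjusted p = 0.012 by limma). This call ended under median centring (-0.30, adjusted p = 0.25), quantile normalization (-0.28, 0.19) and cyclic loess normalization (-0.37, 0.084), and with the spike covariate (-0.44, 0.57).

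Neurod4 (also called Math3), which drives neuronal differentiation after commitment, was the gene that rose, at 2 of its 3 probe sets. At the brightest (1436694_s_at) the control pools stood at 467.7, 639.3 and 631.4 and the exposed pools at 1089.5, 781.1 and 1345.3. The second exposed pool was the nearest to the control pools. The log2 fold change was 0.87 (SE 0.21, adjusted p = 0.012 by limma), or 1.82-fold higher, and it was 0.0024 (SE 0.29, adjusted p = 0.9985) with the spike covariate. At the second (1418054_at) the control pools stood at 476.2, 428.5 and 600.2 and the exposed pools at 738.2, 726.3 and 760.8. There the 3 exposed pools were nearly level with each other, diabetes-exposed replicate 2 included. The log2 fold change at 1418054_at was 0.58 (SE 0.14, adjusted p = 0.012 by limma), and 0.37 (SE 0.28, adjusted p = 0.60) with the covariate, and the call ended without control replicate 2 (0.47, adjusted p = 0.051). The third probe set (1418055_at) was dim, at 6.4, 44.1 and 25.4 in control pools and 43.7, 26.0 and 90.5 in exposed pools, so that the groups overlapped. The increase at the brightest probe set was called without each pool in turn, between 0.69 and 1.08, and under cyclic loess (0.98) and quantile normalization (1.05) and median centring (1.16). With diabetes-exposed replicates 1 and 3 left out it was 0.45 (adjusted p = 0.20).

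Neurod1, the factor that maintains differentiation in sensory ganglia and other neurons, was not called at either probe set. At 1426412_at the signals were 1262.9, 1383.5 and 1457.5 in control pools and 1715.5, 1546.7 and 1620.0 in exposed pools. Each exposed pool was above each control pool, by little. The log2 fold change was 0.25 (95% interval 0.036 to 0.47, adjusted p = 0.068 by limma). It passed the threshold under median centring (0.55, adjusted p = 0.021), quantile normalization (0.30, 0.034), cyclic loess normalization (0.27, 0.0498) and without diabetes-exposed replicate 2 (0.29, 0.036). With the spike covariate it was 0.080 (adjusted p = 0.88). At 1426413_at the groups overlapped, at 1034.5 to 1124.9 in control pools and 895.4 to 1062.5 in exposed pools, with a log2 fold change of -0.12 (95% interval -0.36 to 0.11), which turned to 0.18 under median centring and to 0.029 under quantile normalization and was -0.37 (adjusted p = 0.41) with the spike covariate.

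**Figure D2:**
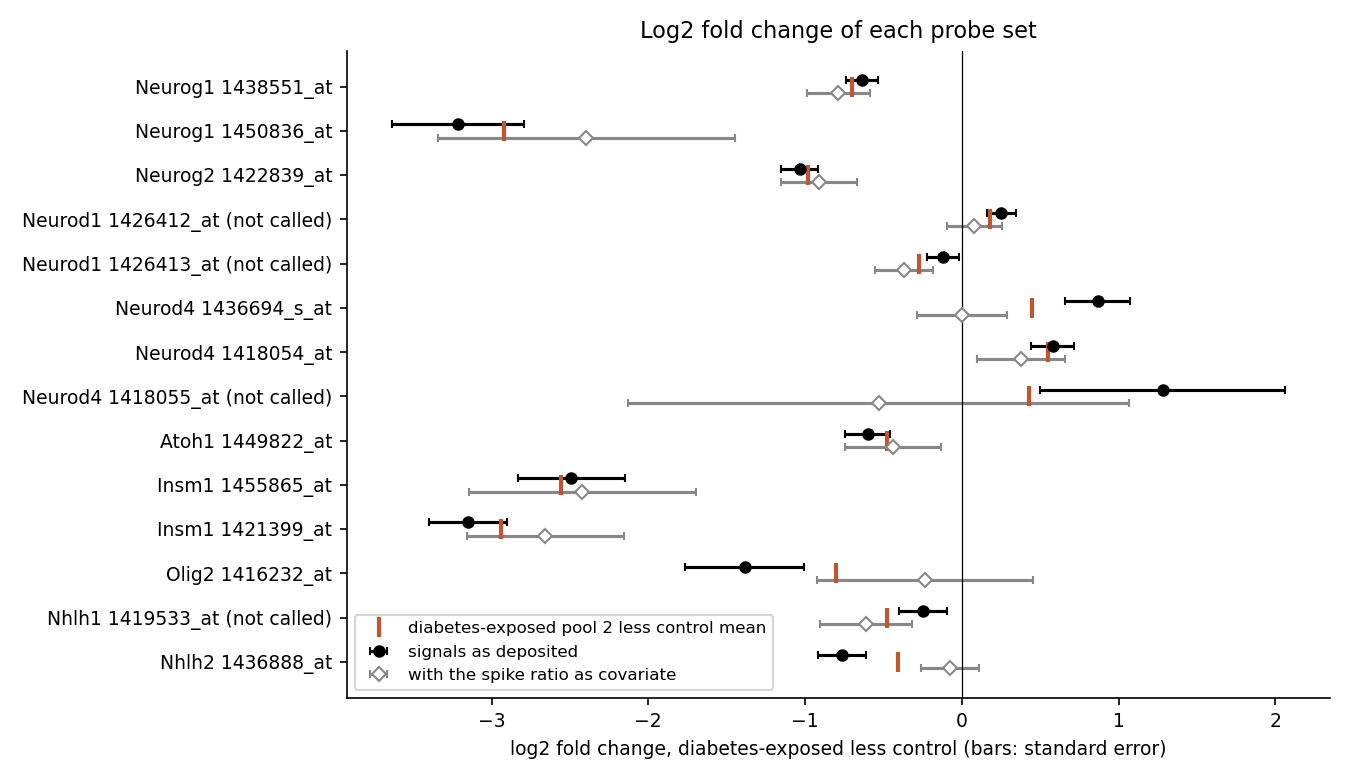
Log2 fold change, diabetes-exposed less control (horizontal axis), of each probe set with the signals as deposited (filled circles) and with the spike covariate (open diamonds), with bars of 1 standard error, and the difference of diabetes-exposed replicate 2 from the control mean (orange ticks). Insm1 stood between -3.15 and -2.42 in both fits, while Neurod4 at 1436694_s_at went from 0.87 to 0.0024 and Nhlh2 from -0.76 to -0.077.

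The related genes Nhlh1 and Nhlh2, expressed in neurons soon after their birth, were both read at 1 probe set, and Nhlh2 was called. For Nhlh2 the signals were 1363.7, 1552.2 and 1384.2 in control pools and 760.0, 1078.3 and 728.9 in exposed pools. All exposed pools were below the controls, and diabetes-exposed replicate 2 lay about midway between the groups. Nhlh2 fell by 0.76 on the log2 scale (SE 0.15, adjusted p = 0.0056 by limma), from 1433 ± 103.4 to 855.7 ± 193.4. The value was -0.077 (SE 0.19, adjusted p = 0.90) with the spike covariate, -0.41 (adjusted p = 0.069) without both diabetes-exposed replicates 1 and 3, and -0.47 (adjusted p = 0.054) under median centring. For Nhlh1 the signals were 387.3, 454.0 and 383.9 in control pools and 390.9, 291.9 and 353.0 in exposed pools. Diabetes-exposed replicate 1 lay within the range of the controls. The log2 fold change of Nhlh1 was -0.25 (95% interval -0.60 to 0.098, adjusted p = 0.24 by limma), and it turned to 0.050 under median centring and 0.045 under quantile normalization. For Nhlh1 the value was -0.61 (adjusted p = 0.38) with the spike covariate and -0.48 at diabetes-exposed replicate 2 alone, both further from 0 than those of Nhlh2. The 95% interval of Nhlh2, -1.11 to -0.42, overlaps that of Nhlh1, and the difference between the genes was not tested.

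Probe sets differed in where diabetes-exposed replicate 2, with the lowest spike ratio of the exposed pools (3.47), stood among those pools, which is given as a description. On the log2 scale it was the exposed pool nearest to the control mean for 9 of the 14 probe sets, those of Neurog2, Nhlh2, Olig2 and Atoh1, all 3 of Neurod4, 1426412_at of Neurod1 and 1450836_at of Neurog1. It was in the middle for both of Insm1. It was the farthest for 3, those of Nhlh1, 1438551_at of Neurog1 and 1426413_at of Neurod1. The margin to replicate 1 was small for Neurog2 (373.6 beside 363.1), for 1418054_at of Neurod4 (726.3 beside 738.2) and for 1450836_at of Neurog1 (15 beside 13.7). The last of these and 1418055_at of Neurod4 were dim.

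**Figure D3:**
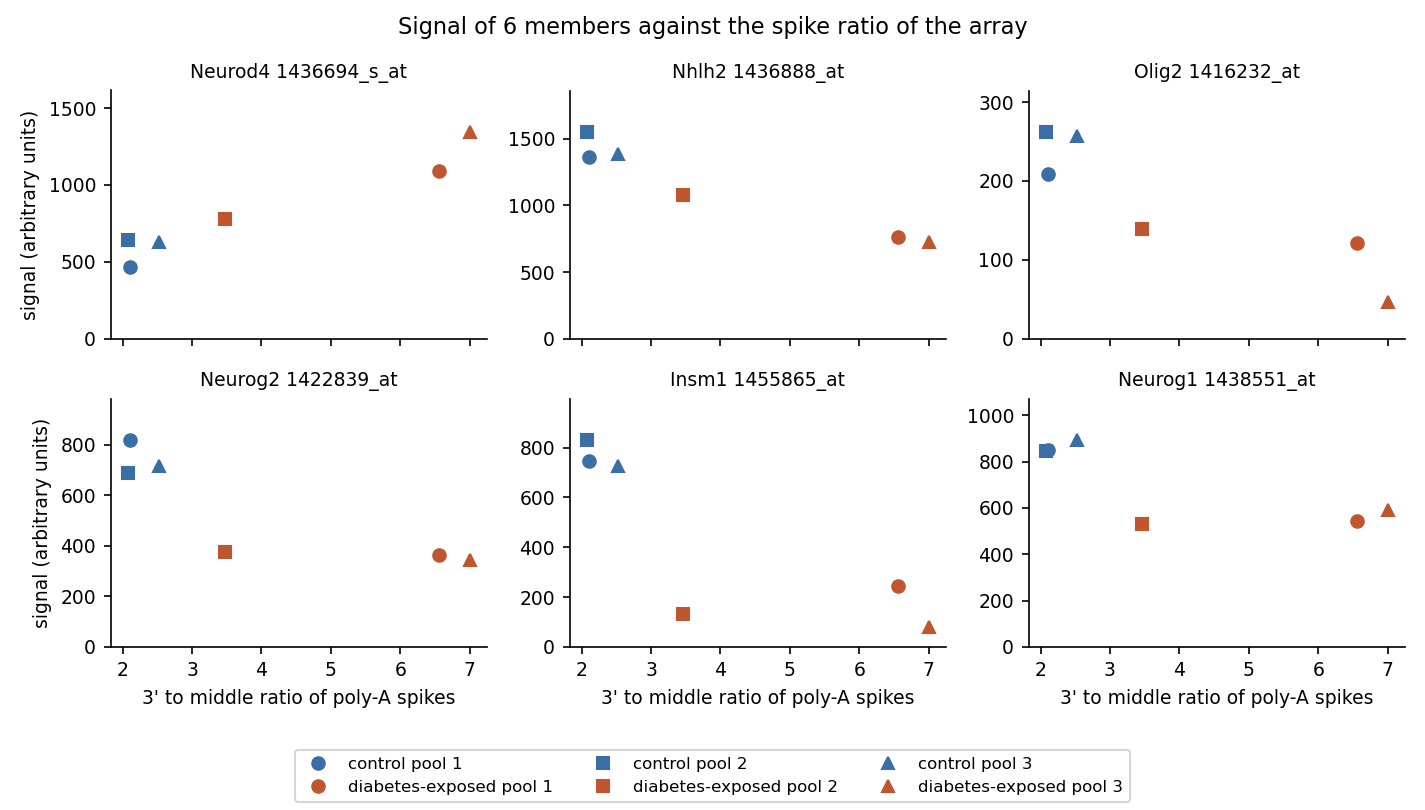
Signal of 6 member probe sets (vertical axes, arbitrary units, starting at 0) against the 3' to middle ratio of the poly-A spikes on the same array (horizontal axis), with 1 point per pool. Diabetes-exposed replicate 2, at a ratio of 3.47, stood between the controls and the other exposed pools for Nhlh2 (1078.3) and Neurod4 (781.1) and level with the other exposed pools for Neurog2 (373.6).

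**Figure D4:**
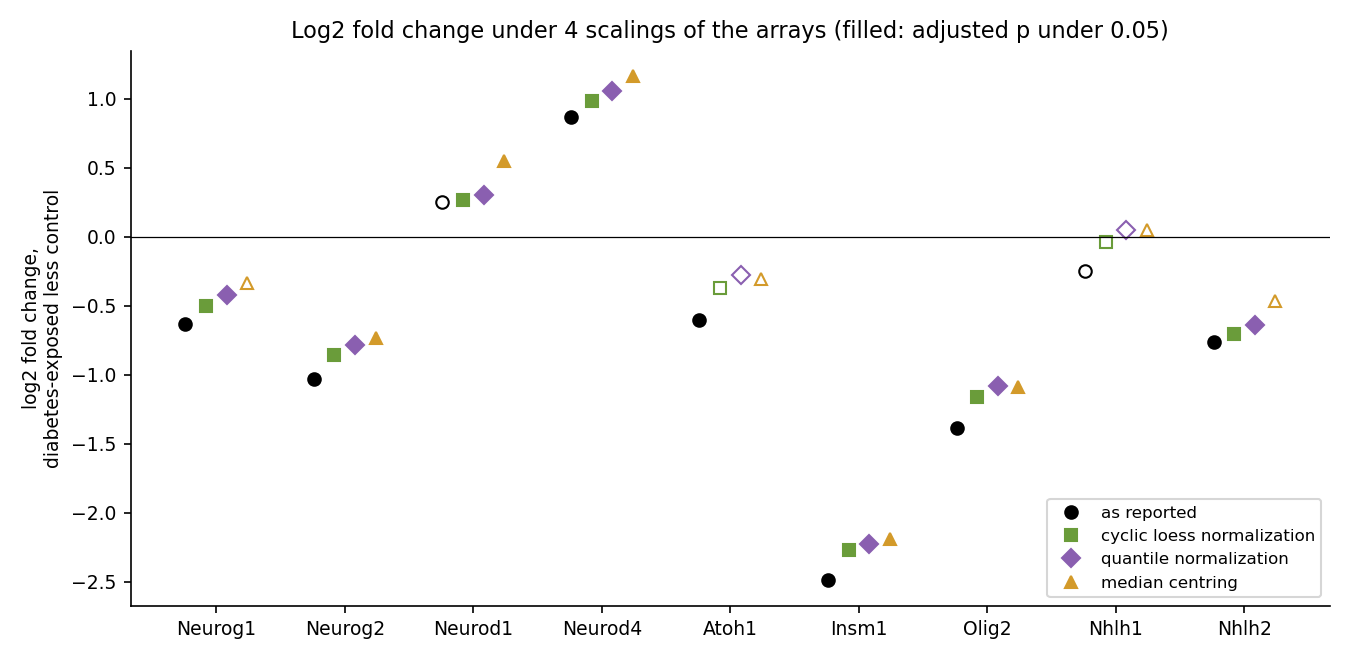
Log2 fold change, diabetes-exposed less control (vertical axis), of the 9 genes for the deposited signals and for 3 rescalings, filled where the adjusted p was under 0.05. Insm1, Neurog2 and Olig2 were lower and Neurod4 higher with a call under all 4, whereas Atoh1 was called with the signals as deposited and under none of the other 3.

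By likeness of their log2 signal over the 6 arrays, and over 13956 genes, the nearest to Neurod4 at 1436694_s_at, the member with the largest increase, were 4930523C07Rik, Gpr137b and Ist1, with Pearson r of 0.9985, 0.998 and 0.995. Nearest to Insm1 at 1455865_at, the member with the largest decrease, were Slc30a1, Nphp4 and Cmtm4, with r of 0.9986, 0.998 and 0.998. With 6 arrays of 2 groups such values are common: 380 genes had an r over 0.95 with Neurod4 and 652 with Insm1.

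Genes of the surrounding pathway were read from lists chosen by function, at 1 probe set per gene, and the share of all genes called in either direction was 37.5%. Of 9 other bHLH genes measured, 2 fell (22.2%). They were Atoh8, by 1.86 on the log2 scale (SE 0.40, adjusted p = 0.0077 by limma), and Olig1, a close relative of Olig2, by 1.42 (SE 0.42, adjusted p = 0.028). With the spike covariate Atoh8 was at -0.53 (adjusted p = 0.80) and Olig1 at -3.08 (0.078). The median of that list was -0.47. Its count and median include Msgn1, a gene of the presomitic mesoderm and not a neural factor, at 0.59 (adjusted p = 0.53 by limma). Of 7 measured E proteins and Id proteins, 2 fell and 2 rose. Tcf3, which encodes the E proteins E12 and E47, common partners of the proneural factors, fell by 1.82 (SE 0.16, adjusted p = 2.7e-04), and stood at -1.15 (adjusted p = 0.045) once the spike ratio was in the fit. The other E protein gene called, Tcf4, rose by 0.47 (adjusted p = 0.040) and stood at -0.056 with that covariate. Among the Id genes, Id4 fell by 1.21 (adjusted p = 4.0e-04) and Id2 rose by 0.58 (adjusted p = 0.0031), all by limma. With the spike covariate Id4 was at -0.73 (adjusted p = 0.071) and Id2 at 0.23 (0.51).

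In the Notch pathway, which restrains proneural genes, 7 of 20 measured genes fell and 2 rose (45.0%), with a median of -0.13. By the smallest adjusted p these were the receptor genes Notch3 and Notch1, with log2 fold changes of -1.20 and -1.87, among those that fell and Hey2, a repressor, and Numb, an inhibitor of Notch, at 0.75 and 0.35, among those that rose. With the spike covariate Notch3 and Notch1 kept their calls (-1.41 and -1.41, adjusted p = 0.015 and 0.048), and Hey2 and Numb did not (0.61 and 0.19, adjusted p = 0.51 and 0.63). The Hes genes, and the ligand genes Dll1 and Dll3, which proneural factors switch on, were singled out after their values were seen. Of the Hes genes measured, Hes1 and Hes5 were not called (0.15 and 0.35, adjusted p = 0.36 and 0.19 by limma). Hes6 fell by 0.47 (adjusted p = 0.016 by limma), and was at -0.43 (adjusted p = 0.47) with the spike covariate. Dll1 fell from 1156 ± 68.9 to 620.1 ± 37.7 and Dll3 from 928.4 ± 103.1 to 411.7 ± 92.4, by 0.90 and 1.19 on the log2 scale (adjusted p = 7.1e-04 and 0.0017 by limma), and with the spike covariate their values were -0.72 (adjusted p = 0.14) and -1.74 (0.040).

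Of 31 measured targets and early neuron genes, 19 fell and 2 rose (67.7%), with a median of -0.55. Rcor2, a corepressor subunit of neural progenitors, fell by 1.30, and Sox4, a factor of differentiating neurons, fell by 0.82 (adjusted p = 3.1e-04 and 4.2e-04 by limma). Isl1, of motor and sensory neurons among other cells of the embryo, rose by 0.50 (adjusted p = 0.0085 by limma). Elavl2, an RNA-binding protein of neurons, rose by 0.33 (adjusted p = 0.018 by limma). With the spike covariate Sox4 kept its call (-0.70, adjusted p = 0.042), Rcor2 was at -0.98 (0.066), and Isl1 and Elavl2 were at 0.12 (0.80) and 0.15 (0.71).

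Genes of the regions in which single members act were also counted. Around Olig2, 7 of 14 measured genes of the ventral spinal cord and motor neurons fell (50.0%), with a median of -0.63. Irx3, which bounds the Olig2 domain on its dorsal side, fell by 1.22 (adjusted p = 1.9e-04 by limma) and was at -1.35 (adjusted p = 0.017) with the covariate. Shh, the ventral signal, fell by 0.50 (adjusted p = 0.0025 by limma) and was at -0.51 (adjusted p = 0.17) with the covariate. Around Atoh1, 4 of 13 measured genes of the dorsal neural tube fell (30.8%, a share below that of all genes), among them Lhx2 and Msx1 with log2 fold changes of -1.66 and -0.66. With the spike covariate Lhx2 was at -1.14 (adjusted p = 0.063) and Msx1 at -0.48 (0.26). In the cranial and dorsal root ganglia, where Neurog1, Neurog2 and Neurod1 act, 4 of 12 measured genes fell and 1 rose (41.7%). Pou4f1, a factor of sensory neurons, fell from 268.8 ± 40.3 to 55.0 ± 7.88, by 2.29 on the log2 scale (adjusted p = 3.9e-04 by limma), and its value with that covariate was -2.74 (adjusted p = 0.038). Sox10, of crest cells and glia, fell by 1.08, and Six4, of the placodes, rose by 0.55. With the covariate Sox10 was at -1.29 (adjusted p = 0.13) and Six4 at 0.53 (0.24).

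**Figure D5:**
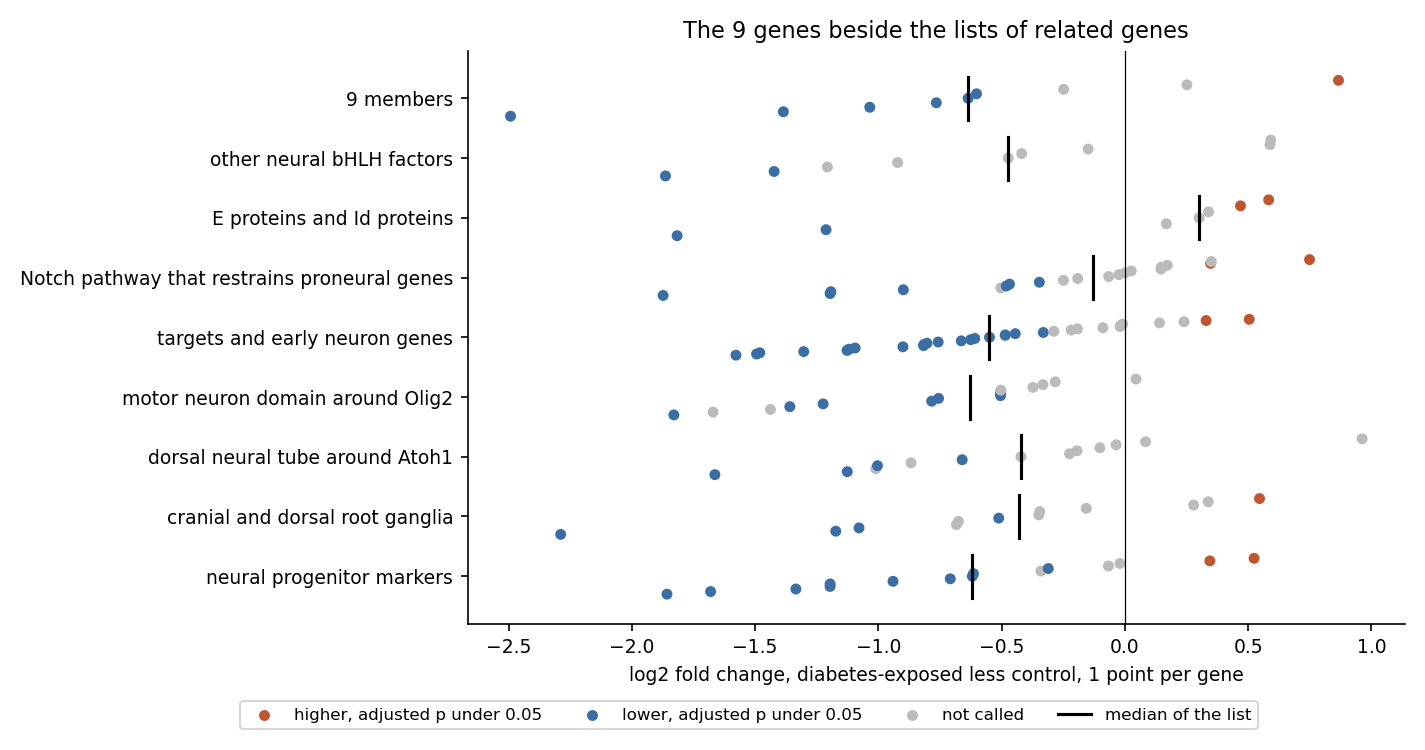
Log2 fold change, diabetes-exposed less control (horizontal axis), with 1 point per gene at its brightest tested probe set, for the 9 members and 8 lists of related genes, coloured by direction where the adjusted p was under 0.05, with a black bar at the median of each list. The median was -0.64 for the members and -0.55 for targets and early neuron genes, and 0.30 for E and Id proteins.

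Markers of the cells that hold these genes, and of other tissues in the pools, were read as well, and not every list moved. Of 15 measured neural progenitor markers 10 fell and 2 rose (80.0%), with a median of -0.62, and Sox1 and Sox3 fell by 1.86 and 1.68. The 2 that rose were Prom1 by 0.52 (adjusted p = 0.0076 by limma) and Fabp7 by 0.34 (adjusted p = 0.033). With the spike covariate Sox1 kept its call (-2.12, adjusted p = 0.015) and Sox3 was at -1.27 (0.076). Prom1 and Fabp7 were both at 0.10 in that fit (adjusted p = 0.82 and 0.86). The summed signal of all 15 neural progenitor markers ran from 48627 to 50216 in control pools and from 42964 to 44513 in exposed pools. The brightest of them was Vim, not called, with means of 17025 and 16789. The sum thus leans on a gene that was not called, and does not show the size of the change in the other markers. Of the 6 heart markers 5 rose, with summed signals of 10964 to 13980 in control pools and 21972 to 25466 in exposed pools. With the spike covariate 1 of the 6, Myl7, was called (1.04, adjusted p = 0.042). Of the 4 liver and yolk sac markers 2 rose, Afp by 0.90 and Ttr by 0.82 (adjusted p = 0.0028 and 0.010 by limma). The list summed to 4131 to 4778 in control pools and 6381 to 9992 in exposed pools. With the spike covariate Afp was at 0.26 (adjusted p = 0.60) and Ttr at 0.065 (0.94). The 6 readable markers of decidua and placenta summed to 5742 to 6537 in control pools and to 72.4 to 74.4 in exposed pools, with Prl8a2 holding most of the control sum. Of the 4 embryonic erythroid markers 0 were called. Of the 5 somite and muscle markers 1 rose, Myf5 by 0.85, and 1 fell, Tcf15 by 1.53 (adjusted p = 0.0033 and 0.017 by limma). With the spike covariate 0 of these 5 were called. In both of these lists the summed signals of the groups overlapped. The part of all these markers in the results on the 9 genes was not tested. Insm1 and Neurod1 are also active in the endocrine pancreas: the 5 readable markers of that tissue summed to 291.1 to 308.0 in control pools and 276.2 to 433.1 in exposed pools, so the groups overlapped, and the 2 markers tested, Nkx2-2 and Gcg, had log2 fold changes of -0.37 and 0.18 (adjusted p = 0.22 and 0.66 by limma). All 6 heart, 4 embryonic erythroid, 5 somite and 4 liver and yolk sac markers that could be read passed the filter, and beside these tissues of the embryo the control pools held the signal of Prl8a2, a gene of the maternal decidua, at 5699 to 6522.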

How the data were processed

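RNA of 6 pools of whole embryos was measured on 6 arrays. The authors made the deposited signal intensities, on a linear scale with 1 value per probe set, from perfect-match and mismatch probes with GCOS and MAS5 (versions not given in the sources used here), after one-cycle labelling. Each array was scaled to a mean of 500.0 without its lowest and highest signals, so values are relative to the other transcripts of a pool. Median signals were 82.2 to 102.8 on control and 74.0 to 78.7 on diabetes-exposed arrays; their number limits the precision.

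Here log2 of each deposited value was used as it stood. Affymetrix's 64 control probe sets, and of the rest the dimmest 33.3% by mean log2 over the 6 arrays, were set aside, which left 30025 for limma 3.58.1 in R 4.3.3 (lmFit, eBayes with a variance trend, Benjamini-Hochberg adjustment over all of them). A gene was read at its brightest tested probe set and called at an adjusted p under 0.05. Python 3.11.15 with matplotlib 3.10.9 drew the plots. The limma fit was checked on simulated data with known changes. Those arrays were drawn independently with no difference in 3' ratios between the groups, so the check does not bear on that difference.

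The members, lists and alternatives were chosen with earlier results of these data known. All members were named, with up to 2 genes that rose and 2 that fell per list by smallest adjusted p, and 3 genes nearest in pattern to the member of largest increase and of largest decrease. Alternatives were 3 other scalings, a pseudocount of 32, no filter and a 50% filter, eBayes with no trend and a Welch test on log2 signals. Others were the mean of a gene's probe sets, the spike ratio as a covariate, leaving out each pool, and a replicate block.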

Additional observations from a re-analysis of the deposited data

How the results depend on the processing

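Of the 9 member genes 1 was called higher and 6 lower, and of their 14 probe sets 2 and 8. Without each pool in turn these counts ran from 1 to 2, 5 to 6, 1 to 3 and 7 to 8, and the calls among 121 related genes, 9 higher and 55 lower, ran from 5 to 14 and from 38 to 52. The share of all tested probe sets called, 36.2%, ran from 23.7% without control replicate 1 to 41.0% without diabetes-exposed replicate 2. The lowest count of higher probe sets (1) came without control replicate 2, and the 2 higher genes without diabetes-exposed replicate 2. For related genes the higher calls were 5 without control replicate 1 or diabetes-exposed replicate 3, and 14 without diabetes-exposed replicate 2. Under median centring 2 genes were higher and 3 lower, 5 probe sets were lower, and 18 related genes were higher and 32 lower. Of all probe sets 24.8% were higher and 13.0% lower in that setting. After quantile and cyclic loess normalization 2 genes were higher. A Welch test on log2 signals, with Benjamini-Hochberg adjustment, called 0 member genes in either direction (7 at an unadjusted p under 0.05). It called 0 member probe sets higher and 1 lower, 1 related gene higher and 8 lower, and 1.38% of all probe sets. The paper ran its Welch test in other software, beside Cyber-T and a fold minimum, and found many more probe sets. These counts are therefore not those of the paper's procedure. With the spike ratio as a covariate limma called 0 genes higher and 0 lower (3 at an unadjusted p under 0.05) and 0 probe sets higher and 1 lower. It called 0 related genes higher and 11 lower (39 in all at an unadjusted p under 0.05), and 1.21% of all probe sets. With diabetes-exposed replicates 1 and 3 left out, the log2 fold change was below 0 for 7 of the 9 genes, the same count as with all arrays. Related genes called higher numbered 5 by eBayes with no trend and 5 at the mean of all probe sets, and Olig2 lost its call with no trend (adjusted p = 0.057). The cause of these changes was not tested.

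Directions reversed for 3 probe sets that were not called: Nhlh1 (0.050 under median centring, 0.045 under quantile normalization), Neurod1 at 1426413_at (0.18 and 0.029) and Neurod4 at 1418055_at (-0.53 with the spike ratio as a covariate). A pseudocount of 32 and no filter on dim probe sets changed no call of the 14 probe sets, and the 50% filter none of the 12 it left. Same-numbered pools of the groups share a number and no stated origin, and the correlations of their deviations from the group means were 0.000049, 0.076 and 0.12. The replicate block gave 1 gene higher and 6 lower, 2 probe sets higher and 8 lower, and 10 and 53 related genes, with no call of a member changed. Dim signals limit 1450836_at of Neurog1 and 1418055_at of Neurod4.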
